A study of Triticum aestivum and Zea mays with 29 samples.

Results

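TS105 is a wheat target of LbCas12a crRNAs, and it was 1 of the 12 Cas12a crRNA targets in the deposited tables, 6 of them in wheat and 6 in maize. It was followed by its name through every table that lists it. The B copy of the site is matched by the crRNA over its whole spacer and appears in the tables of the nucleases, of the adenine base editors (ABEs) in simplex and in multiplex, and of a first ABE experiment. The A and D copies appear, beside the B copy, only in 4 library summaries, where TS105 made up 3 of 18 wheat amplicons.

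LbCas12a is a bacterial nuclease. Its crRNA pairs with DNA that lies beside a T-rich motif, the PAM. The active enzyme cuts both strands at the far end of the spacer, and repair by the cell leaves small insertions and deletions (indels). In an ABE the cutting activity is removed by the D832A mutation and a TadA adenine deaminase is attached, so that adenines of the strand opened by the crRNA are turned into inosine, which is read as G. Bread wheat holds related A, B and D subgenomes, and the crRNAs of this study were chosen to match 1 of them and to have mismatches with the others.

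All values came from protoplasts of wheat leaves, cells whose walls were digested away, transfected with plasmids and sorted on GFP fluorescence, so that they describe GFP-positive cells only. The maize ubiquitin promoter drove each nuclease or editor. In system a the 35S promoter drove a crRNA set between 2 ribozymes (HH and HDV), and in system h the wheat U3 promoter drove a tRNA followed by the crRNA between mature direct repeats. The nuclease groups were wild-type LbCas12a or the D156R variant, each with system a or system h, and a control, with 3 replicates each. The study ran the nucleases in multiplex at 4 wheat targets. The ABE tables in simplex (1 crRNA) and in multiplex (4 crRNAs) hold 7 numbered arms with 3 replicates each. Both ABE tables list 4 editors, with TadA8e or TadA9 on LbCas12a carrying D832A and in 3 of the 4 also D156R, and crRNAs of both systems. They do not say which arm number is which editor, so arms are given here by number. The study compared 6 architectures in these experiments, and whether one of the 7 numbers is a control is not stated in the tables. The first ABE experiment held 3 replicates of v9h, that is TadA8e on LbCas12a(D156R-D832A) with system h and 6 crRNAs together, and 1 control. The depth behind a single percent is unknown for these tables.

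The spacers are shown because all editing positions below are counted along them, from 1 at the base next to the PAM. Capitals mark the adenines that the ABE tables list in the B copy, and the base that differs from the crRNA in the A and D copies.
TS105-B: gtcttacAAgAggaaaggtgggg
TS105-A: gtcttaGaagaggaaaggtgggg
TS105-D: gtcttaGaagaggaaaggtgggg

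The B site lies in TraesCS3B02G299400 on chromosome 3B, and the A and D sites in TraesCS3A02G266100 on chromosome 3A and TraesCS3D02G266200 on chromosome 3D. Coordinates and the exon or intron of the site are not given here, since none of the 3 gene identifiers (0 of 3) matched the reference table. The spacer has 23 bases, follows the PAM tttc in each copy and holds 7 adenines, of which A8, A9 and A11 are listed in the ABE tables. The others, A6, A14, A15 and A16, have no listed value. A and D each differ from the B spacer by C7G and by nothing else, so the base just before A8 is C in the B copy and G in the other two. The B amplicon of 209 bases is shown to give the surroundings of the site, with the PAM and the spacer in capitals.
TS105-B amplicon: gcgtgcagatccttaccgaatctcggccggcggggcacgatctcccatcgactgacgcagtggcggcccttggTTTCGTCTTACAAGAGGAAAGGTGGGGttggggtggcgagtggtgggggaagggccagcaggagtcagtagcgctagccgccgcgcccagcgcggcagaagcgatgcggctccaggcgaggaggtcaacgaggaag

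Of this amplicon 66.0% is G or C, against 44.9 to 48.4% in the amplicons of the 3 other targets in the same tables. Counted along the amplicon, the A copy differed from the B copy by A59G and C84G and the D copy by C84G and G111C, where C84G is the spacer difference. The 3 other spacers are shown for comparison of the adenine positions, again with the listed adenines in capitals.
TS60-A: tctcctAcAAAgctAgagtatca
TS112-A: aagataAAtAtgagtcagaccgt
TS121-D: tctccctAAtAttgctcgtcttt

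The adenine with the highest mean over both ABE tables was A8 at TS105-B, A9 at TS60-A, A10 at TS112-A and A11 at TS121-D. The 5 bases centred on it read acAag at TS105-B and acAaa at TS60-A, whereas they were atAtg at TS112-A and atAtt at TS121-D. The spacer of TS105-B ends in 4 G bases and has 52.2% G or C, the highest of these 4 spacers, which ranged down to 34.8%.

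Cutting at TS105-B was low with system a and high with system h for both nucleases. The arms of the nuclease table carry numbers but no key, and the key printed beside the maize nuclease values, for the same plasmids and numbers, was used for them. In the control the indel percent of aligned reads was 0.173, 0.180 and 1.49 in replicates 1 to 3. Wild-type LbCas12a with system a gave 8.12, 4.53 and 9.07%. All 3 values were above all 3 controls, although the third control was clearly higher than the other 2.

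With D156R and system a the indel percents were 17.3, 26.0 and 19.0. With wild type and system h they were 63.9, 54.3 and 70.3, and with D156R and system h they were 67.7, 71.4 and 70.8. The groups of system h lay above those of system a without overlap, by 45.2 points for wild type and 41.7 points for D156R between the nearest replicates. Within system a the D156R replicates lay above the wild-type ones by at least 8.20 points, and within system h the highest wild-type value was above the lowest D156R value.

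The means were 0.616 ± 0.761% in the control (SD, n = 3, as for the following means), 7.24 ± 2.39% for wild type with system a, 20.7 ± 4.62% for D156R with system a, 62.8 ± 8.05% for wild type with system h and 70.0 ± 1.99% for D156R with system h. From the first edited arm to the last, indels were 9.66 times as frequent. The 3 values of wild type with system h are the only ones of the 60 in the nuclease table given to 1 decimal, and every other value has at least 6. How these 3 values were made is not stated.

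System h in place of system a added 52.4 points at TS105-B over both nucleases (exact two-sided permutation test within each nuclease, p = 0.005, the smallest of 400 arrangements, and 0.00667 after Benjamini-Hochberg adjustment over the 4 targets). D156R in place of wild type added 10.3 points over both systems (exact permutation p = 0.01, adjusted 0.0133). Both contrasts passed at all 4 targets of the table, so that 100% of targets were called in either one. Leaving out replicate 2 brought the D156R difference to 5.83 points, and with any replicate left out the smallest p that the test allows is 0.0556.

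The D156R difference was 13.5 points with system a, a 2.86-fold change, and 7.12 points with system h, a 1.11-fold change. The system h difference was 55.6 points for wild type, 8.68-fold, and 49.2 points for D156R, 3.37-fold. Taken alone, with 3 replicates against 3, none of these 4 differences can go below an exact p of 0.1. That value was reached by 3 of them and by each edited arm against the control, and D156R against wild type with system h had an exact p of 0.2 in this permutation test.

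In points averaged over the arms, TS105-B gained less from D156R and more from system h than the mean of TS60-A, TS112-A and TS121-D in the same transfections. With system a, D156R raised the mean of the 3 other targets from 11.2 ± 1.57 to 56.1 ± 9.54%, whereas TS105-B went from 7.24 to 20.7%. In that arm TS105-B was the lowest of the 4 targets in all 3 replicates, with differences from the mean of the others between -43.6 and -27.9 points. In wild type with system a it was the lowest in none of the replicates.

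The D156R difference at TS105-B was smaller than at the other targets, with a difference between them of -22.8 points over both systems (exact permutation of TS105-B minus the mean of the others, p = 0.005, the smallest allowed). The system h difference was larger by 14.6 points (exact permutation p = 0.005). Target by target, the D156R difference in points was the smallest at TS105-B in either system, whereas its 2.86-fold change with system a was near the 2.60-fold at TS60-A and below the 10.2-fold at TS112-A and the 9.25-fold at TS121-D. The system h difference with D156R was the highest at TS105-B, 49.2 points against 17.7, 19.4 and 41.3 at TS60-A, TS112-A and TS121-D. With wild type it was 55.6 points and 8.68-fold at TS105-B, below TS112-A with 60.9 points and 10.9-fold, and in fold also below TS121-D with 44.3 points and 9.74-fold. At TS60-A it was 43.5 points and 2.93-fold. Within single arms the gap in the D156R difference was -31.4 points with system a and -14.3 points with system h, and the gap in the system h difference was 6.02 points for wild type and 23.1 points for D156R. Each of these 4 had an exact permutation p of 0.1, the smallest allowed for 3 against 3. Without the arm whose values have 1 decimal, the gaps that can be taken are those of -31.4 and 23.1 points.

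In the best arm, D156R with system h, TS105-B was again the lowest target in all 3 replicates, at 70.0% against 76.4% for TS60-A, 82.2% for TS112-A and 88.2% for TS121-D. In wild type with system h it ranked second in all 3 replicates and differed from the mean of the others by 2.01 ± 3.05 points (SD, n = 3). Over the 12 edited transfections TS105-B lay below the mean of the others in 10, with a mean difference of -12.4 ± 15.5 points (permutation of signs, exact p = 0.00928). Without replicate 1 or without replicate 2 that p was 0.0547, with mean differences of -13.7 and -12.5 points. TS121-D had a control replicate at 10.9%, and without this target the mean difference was -15.0 points.

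Adenine editing at TS105-B fell mainly on A8. In simplex the table holds replicates 1 and 2 for this target and leaves replicate 3 blank, so 14 transfections were compared. A8 was above 0 in 10 of them, A9 in 1 and A11 in 3. In multiplex A8 was above 0 in 13 of 21 transfections, A9 in 0 and A11 in 4. Of the summed percents of these 3 adenines, A8 held 90.3% in simplex and 89.1% in multiplex.

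A8 exceeded A9 by 1.29 ± 1.79 points in simplex (SD, n = 14, higher in 10 and equal in 4) and by 0.518 ± 0.536 points in multiplex (n = 21, higher in 13 and equal in 8). The exact permutation p of these differences, with signs permuted over transfections, was 0.00195 and 0.000977 after adjustment over the 4 position comparisons. A8 exceeded A11 by 1.24 ± 1.80 points in simplex (higher in 10, equal in 4) and by 0.454 ± 0.488 points in multiplex (higher in 12, equal in 8, lower in 1), with adjusted exact permutation p of 0.00195 and 0.000977. In simplex without replicate 2 only 4 transfections differ between positions, and the smallest p they allow is 0.125. A8 had the highest mean in these same values, and the comparisons were chosen with earlier results known. These p-values do not allow for that choice.

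The single A9 value above 0 was 0.61% in simplex arm 6, replicate 2, the transfection with the highest A8 of all. A11 in simplex was 0.24% in arm 3 and 0.81% in arm 5, both in replicate 1, and 0.36% in arm 6, replicate 2. A11 in multiplex was 0.47 and 0.27% in replicates 2 and 3 of arm 5, and 0.35 and 0.24% in replicates 1 and 2 of arm 6. All 7 transfections with A9 or A11 above 0 had A8 above 0 too. A8 was the higher one in 6 of these 7, and the exception was multiplex arm 5, replicate 2, with 0.47% at A11 and 0.44% at A8.

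Many values of these tables are listed at 0, and the smallest value above 0 was 0.21% in simplex and 0.2% in multiplex over all targets. A listed 0 may thus hold conversion below that size. A small value above 0 need not be editing either, since the control of the first ABE experiment was listed at 0.24% at A9 of this site. At TS105-B 14 of 42 values were above 0 in simplex and 17 of 63 in multiplex.

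Across the numbered arms, A8 was highest on average in arms 5 and 6 and at 0 in all replicates of arm 7. In simplex, replicates 1 and 2 gave 0 and 0.4% in arm 1, and 0 and 0.21% in arm 2. Arm 3 gave 1.2 and 0.81%, and arm 4 gave 1.15 and 0.22%. Arm 5 reached 2.73 and 4.21%, and arm 6 reached 1.31 and 6.47%, the widest gap between 2 replicates of an arm at this site.

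In multiplex A8 was 0.25% in replicate 2 of arm 1 and 0 in its other replicates, and 0 in all replicates of arms 2 and 7. Replicates 1 to 3 gave 0.79, 1.03 and 0.33% in arm 3, 0.78, 0.88 and 0.46% in arm 4, 1.25, 0.44 and 1.36% in arm 5, and 1.17, 1.65 and 0.48% in arm 6. Arms 3 to 6 were thus above 0 in every replicate of both tables, the lowest being 0.22% in simplex arm 4. Their ranges overlapped one another in multiplex.

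A8 differed across the 7 arms in multiplex (Kruskal-Wallis H = 16.5, permutation p = 0.00043 with 100000 resamples, adjusted 0.00149 over 13 adenines with a value above 0) and in simplex (H = 11.6, permutation p = 0.00731, adjusted 0.0256 over 14 adenines). Of the adenines in each table, 61.5% passed in multiplex and 35.7% in simplex. A11 of TS105-B did not pass in either table, with an adjusted permutation p of 0.0603 in multiplex and 1 in simplex. A9 had an adjusted p of 1 in simplex and was not tested in multiplex, where all its values were 0. With the F statistic in place of ranks the simplex call at A8 was lost (adjusted permutation p = 0.245). Without replicate 1 the multiplex call was lost (adjusted permutation p = 0.113). Neighbouring arms were not compared one by one, since 3 against 3 cannot reach p below 0.1. The tests ran over all 7 arms, with arm 7 at 0 throughout, and whether one arm is a control is not stated. They do not show a difference among arms 3 to 6, which were not tested on their own.

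Values in simplex were higher than in multiplex at A8, but the libraries were too few for a test to pass. Averaged over the 7 arms, A8 was 0.913 and 1.76% in simplex libraries 1 and 2, and 0.57, 0.607 and 0.376% in multiplex libraries 1 to 3. The groups did not overlap, with means of 1.34 ± 0.599% (SD, n = 2) and 0.518 ± 0.124% (SD, n = 3), a 2.58-fold ratio. The difference of 0.819 points had an exact permutation p of 0.1, the smallest that 2 libraries against 3 allow, and 0.7 after adjustment over 14 adenines. Of these 14 adenines 0% passed, with 0 at an unadjusted p under 0.05, and 14.3% had all simplex libraries above all multiplex ones.

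The difference was 0.44 points without replicate 2 and 1.27 points without replicate 1. Delivery and library set cannot be told apart, since each kind of delivery has libraries of its own, titled with a date of their own. Neither table says that an arm number stands for the same editor in both. For the same arm number the simplex and multiplex ranges of A8 were apart for arm 5, with 2.73 to 4.21% against 0.44 to 1.36%. They overlapped for arm 3, with 0.81 to 1.2% against 0.33 to 1.03%, for arm 4, with 0.22 to 1.15% against 0.46 to 0.88%, and for arm 6, with 1.31 to 6.47% against 0.48 to 1.65%.

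At the leading adenines of the other targets the ratio of simplex to multiplex means was 1.27 for TS60-A, 1.24 for TS112-A and 1.08 for TS121-D. The simplex minus multiplex difference at TS105-B exceeded their mean difference by 0.511 points (exact permutation p = 0.3), and without replicate 2 this value was -0.0655 points. A larger change at TS105-B than at the other targets was therefore not shown.

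Within the multiplex transfections A8 of TS105-B was lower than the mean of the 3 other leading adenines with a mean difference of -1.01 ± 1.45 points (SD, n = 21, lower in 13, equal in 5 and higher in 3, exact permutation p = 0.0029). This comparison was added after the values were seen. Against single targets, with p adjusted over 3, A8 was lower than A9 of TS60-A, with a mean difference of -1.08 points, and lower than A10 of TS112-A, with one of -1.62 points (exact permutation p = 0.00192 for each). Against A11 of TS121-D the difference was -0.328 points, with TS105-B lower in 5 and higher in 8 of 21 transfections (exact permutation p = 0.254).

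In the first ABE experiment v9h gave 1.36, 0 and 0.44% at A8 in replicates 1 to 3, a mean of 0.6 ± 0.694% (SD, n = 3), and the control was at 0. At A9 all 3 v9h replicates were at 0 and the control was listed at 0.24%, and at A11 all 4 values were 0. One v9h replicate equalled the control at A8, and the control has 1 replicate, so no test was made. The smallest value above 0 in this table, over its 64 values, was the same 0.24%.

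Indel percents at TS105-B were mostly higher than A-to-G percents at A8. The nuclease and ABE tables list the same TS105 crRNA plasmids of systems a and h. Indels of the 12 edited nuclease transfections ran from 4.53 to 71.4%, whereas 1 of the 35 A8 values of the numbered ABE arms was above 4.53%, the 6.47% of simplex arm 6. That value lay within the range of wild type with system a, 4.53 to 9.07%. It came from simplex, however, whereas the study ran the nucleases in multiplex. The highest multiplex A8 was 1.65%. The 35 values cover all 7 numbers, which may include a control, whereas the nuclease control is left out of the 12. The 2 readouts count different products, indels against A-to-G at 1 base, and came from different libraries, so they are given without a test.

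The place of TS105-B among the 4 targets was also set side by side. It was the lowest in indels with D156R in all 3 replicates of both systems. With wild type it ranked 2 or 3 of 4 with system a and 2 with system h. In multiplex A-to-G its leading adenine had the lowest mean, at 0.518% against 0.845% for TS121-D, 1.60% for TS60-A and 2.14% for TS112-A. The multiplex difference from TS121-D did not pass (exact permutation p = 0.254). There TS105-B was lower in 5 and higher in 8 of 21 transfections. In simplex its mean of 1.34% over 2 libraries was below 2.03% for TS60-A and 2.65% for TS112-A over 3 libraries. Its place beside TS121-D was not settled in simplex either. Library means were 0.913 and 1.76% at TS105-B in libraries 1 and 2, and 1.09, 0.111 and 1.54% at TS121-D in libraries 1 to 3.

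The A and D copies, which differ from the crRNA by C7G, were measured in 4 further wheat libraries, titled as base editor libraries, whose arms the labels do not give. Their summaries count reads with a substitution, deletion or insertion against each amplicon, so that sequencing errors are included and the substituted share is no editing efficiency. The study describes a counting window for base editing, and whether it applied here is not stated. The A and D amplicons each differ from the B amplicon by 2 bases. A read given to the wrong copy could count as substituted, which was not tested. Amplicon 1 is the B copy. Amplicons 2 and 3 are the A and D copies, but which is which is not stated. The 12 amplicon counts were 130242 to 187946 reads, which gave Wilson 95% intervals of at most 0.14 points on either side of a substituted share, for counting error only.

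The substituted share of the B copy was 7.99% in library 1 (interval 7.86 to 8.12), 8.94% in library 2 (8.80 to 9.08), 8.47% in library 3 (8.34 to 8.60) and 7.94% in library 4 (7.80 to 8.08). Amplicon 2 had 5.98, 6.79, 7.66 and 6.83%, and amplicon 3 had 6.74, 6.90, 7.98 and 7.09% in libraries 1 to 4. The B copy was above both other copies in all 4 libraries, and its interval did not touch theirs. Its excess over the mean of the 2 other copies was 1.62, 2.09, 0.649 and 0.977 points in libraries 1 to 4. The 2 other copies differed from each other by 0.759, 0.11, 0.318 and 0.255 points, amplicon 3 being higher each time, with overlapping intervals in libraries 2 and 4.

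Among the 18 amplicons of a library the B copy of TS105 ranked first in libraries 2, 3 and 4 and second in library 1, and the other 2 copies ranked between 2 and 4. The other 15 amplicons had medians of 3.95 to 4.61%. The highest of them was at 8.03, 8.63, 4.89 and 4.58% in libraries 1 to 4, so it was near the B copy in libraries 1 and 2. Reads with substitutions and no indel made up 97.7 to 99.1% of modified TS105 reads. The share of modified reads therefore described substitutions almost alone.

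Deletions were rare at all 3 copies. They were seen in 0.0849, 0.105, 0.079 and 0.0704% of reads of the B copy in libraries 1 to 4, or 101 to 166 reads, and in 0.0788 to 0.141% of reads of the other 2 copies. The B copy was below the mean of the other 2 in 3 of the 4 libraries and above it by 0.025 points in library 2. Insertions were found in 3 to 12 reads per amplicon. These deleted shares were below the lowest indel percent of the nuclease control, 0.173%, but the 2 measures are not alike. One counts deletions alone and the other counts insertions too, and they came from different experiments. The study also used different counting settings for base editing and for nuclease indels. The medians of the other 15 amplicons were lower, at 0.017 to 0.0224%, and the TS105 copies ranked between 2 and 7 of 18.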

How the data were processed

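Amplicons from GFP-sorted wheat protoplasts were sequenced and analysed by the authors with CRISPResso2. The percent values that the authors deposited are shares of aligned reads with A-to-G at an adenine or, for nucleases, with indels. The read counts of the 4 library summaries were deposited by the authors too. Of the 18 deposited files 8 were used, and no per-sample column was left unmatched. Spacers and amplicons were read from the study's list of target sequences.

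TS105 and the comparisons were chosen with earlier results of these data known. The text names TS105-B, each adenine listed for it, and its A and D copies, and other targets only for comparison. Replicate N of a column was taken as library N of its experiment. The study calls the replicates biological, and p-values from permuting replicates measure the spread between them. Permutations of signs over transfections count different arms of the same libraries as separate units. Their p-values, and the SDs given with them, therefore also hold the spread between arms and do not measure replicate spread alone.

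No percent was filtered or transformed. Differences were tested by exact two-sided permutation of replicates within strata, or of signs over transfections, and arms by permuted Kruskal-Wallis statistics with 100000 resamples, all against a threshold of 0.05 after Benjamini-Hochberg adjustment over the table. Single tests against the other targets were not adjusted. The scripts were tested on simulated data.

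Replicate numbers were checked as pairs. Between same-numbered simplex and multiplex libraries deviations from arm means correlated in all 3 pairs (r from 0.221 to 0.482), from the data and not the labels. The check matched arms by number, which is not stated to stand for the same editor in both. The pairing is therefore unsure, and it was used only as an alternative. With the pairing as a block the difference at A8 was 0.748 points, with an exact permutation p of 0.5, the smallest that 2 pairs allow.

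Alternatives were log2 scales (1 or 0.1 percent added), ranks, the control subtracted, medians or means over other sets of targets or adenines, replicate blocks and leaving out each replicate. Python 3.11.15, NumPy 2.4.6 and SciPy 1.17.1 were used.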

Additional observations from a re-analysis of the deposited data

Results flagged for a closer look

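For the nucleases, 2 contrasts at TS105-B differed from the same contrasts at the other 3 targets by a test of the difference itself. The D156R minus wild type difference was -22.8 points relative to the other targets, and the system h minus system a difference was 14.6 points relative to them, each with an exact permutation p of 0.005. Both contrasts use the same arms, so they are not separate findings. TS105-B lay furthest from the other targets in D156R with system a, with a mean difference of -35.4 points. The gap in the system h difference was 23.1 points for D156R and 6.02 points for wild type. No group held 4 or more replicates, so no sample was tested for standing apart.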

How the results depend on the processing

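Of 81 alternatives to 14 tested results, 57 kept the direction and the side of the threshold, 23 kept the direction and lost the call, and 1 turned the direction. Some of the 57 could not have changed side. For simplex minus multiplex, every alternative had a smallest allowed p of 0.1 or more. Leaving out transfections with every TS105-B adenine at 0 repeated the same permutation of signs, since equal pairs do not enter it. With a replicate left out, the D156R difference ranged from 5.83 to 12.9 points, the system h difference from 50.3 to 54.8, the D156R difference relative to the other targets from -25.6 to -18.5, the system h difference relative to them from 13.2 to 17.1, and the level relative to them from -13.7 to -11.1. In simplex A8 minus A9 ranged from 0.913 to 1.67 points and A8 minus A11 from 0.763 to 1.71. In multiplex H across arms ranged from 10.6 to 12.1. The simplex minus multiplex difference relative to the other targets ranged from -0.0655 to 1.03 points. Except for the level and the multiplex H, the calls lost with a replicate left out had too few arrangements to reach 0.05.

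Without the arm of wild type with system h, left out only once its values were seen, the D156R difference was 13.5 points, the system h difference 49.2, and the differences relative to the other targets -31.4 and 23.1, with an exact p of 0.1 that 3 against 3 cannot go below. The F statistic across simplex arms was 2.52, and A8 minus A11 of TS121-D alone was -0.328 points. With the replicate block the nuclease contrasts have the same values of 10.3 and 52.4 points by construction (adjusted exact permutation p of 0.0417 and 0.0312). The block changed no other call. Subtracting the control of the same replicate leaves these values unchanged by construction too. Arms of one library correlated above 0.1 in 10 of 18 nuclease pairs, 20 of 45 simplex pairs and 15 of 63 multiplex pairs. The median r of these pairs was 0.211, 0.0088 and -0.0252, in that order. Whether arms of one library share a replicate effect was not settled by this check, and the main tests did not pair them. Leaving out a replicate of simplex arms was not run, since 1 per arm would remain. Without replicates 1, 2 or 3, v9h at A8 ranged from 0.22 to 0.9%.

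The percents carry no read count, so how far depth limits them is unknown. No ABE value between 0 and 0.2% is listed, and TS105-B has 2 simplex replicates.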
